A study of Bos grunniens with 18 samples.

Results

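The genes described here are 8 that regulatory T cells and the mechanisms of immune tolerance are known for: the transcription factors *FOXP3* and *IKZF2*, the IL-2 receptor chain *IL2RA*, the inhibitory receptors *CTLA4*, *TIGIT* and *PDCD1*, and the cytokines *IL10* and *TGFB1*. They were taken by gene name from the table of 20607 genes deposited for yak blood, where 8 of 8 were present once each, and 8 of 8 were among the 14508 genes with enough counts to be tested. Blood was sampled from adult female *Bos grunniens*, 4 to 8 years old, in 3 reproductive stages named Y-A (anestrus), Y-E (estrus) and Y-P (pregnancy), with 6 libraries per stage and 18 in all. Per the study, the blood sequenced came from 6 cows in the second year of calving, picked to be sure of the stage. They were followed through the stages at a breeding station. Estrus was brought on with a progesterone pessary, PGF2α and GnRH before timed insemination. Stage, hormone treatment and sampling date therefore cannot be told apart. The whole blood was drawn into EDTA and mixed with TRIzol LS without separating the cells, and the day of pregnancy is not given in the sources used here.

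Regulatory T cells are CD4+ T cells that restrain other immune cells. FOXP3 is their lineage-defining transcription factor, IL2RA (CD25) lets them capture IL-2, and CTLA4 strips costimulatory ligands from antigen-presenting cells. In pregnancy these cells are known for helping the maternal immune system to tolerate the fetus. Most of the 8 genes are not confined to them: activated T cells also make IL2RA, CTLA4, PDCD1 and TIGIT, and TGFB1 is made by most blood cells and stored in platelets. In a bulk sample of blood, fewer cells of a type and less RNA per cell cannot be told apart.

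Library totals ran from 30247267 to 48401076 counts. Y-E replicate 6 stood apart from the rest of its stage. Its 7 markers of red cell precursors summed to 5197 CPM (counts scaled to the library total, normalised by TMM), against a median of 286 CPM over the 6 Y-E libraries. Some supplementary tables of the study leave this library out. The comparisons include it, and the values without it are given where they bear on a call. The blood label was matched by the marker genes, since 8 T cell, 7 B cell, 7 monocyte and 6 neutrophil markers were present, each above the floor of 3 counts in every library. The makeup of the RNA also moved with stage. The red cell precursor markers summed to 659 to 11927 CPM at Y-A, 241 to 5197 CPM at Y-E and 156 to 253 CPM at Y-P, so Y-E replicate 6 lay within the Y-A range. T cell markers summed to 1163 to 1442 CPM at Y-A, 1209 to 1496 CPM at Y-E and 1411 to 2283 CPM at Y-P.

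Of the 8 genes, 0 passed in Y-E vs. Y-A, 0 in Y-P vs. Y-A and 1, *TGFB1*, in Y-P vs. Y-E (edgeR quasi-likelihood test, two-sided, adjusted p under 0.05 over the 14508 genes). *TGFB1* was lower in pregnancy, at 0.639 times its estrus level. The gene that defines regulatory T cells, *FOXP3*, had nearly the same mean in estrus and pregnancy, 7.71 ± 0.997 and 7.84 ± 1.65 CPM (SD, n = 6 each). The background was 0.0207% of all genes for Y-E vs. Y-A, 5.83% for Y-P vs. Y-A and 14.4% for Y-P vs. Y-E. With the study's added requirement of a log2 fold change of at least 1 in size, the members' count was 0 in each comparison, against 0.0138%, 1.43% and 2.67% of all genes. At an unadjusted p under 0.05 the members' counts were 0, 2 and 2, where 6.2%, 22.7% and 29.3% of all genes stood. The median size of the log2 fold change was 0.19, 0.27 and 0.21 over the 8 genes, beside 0.15, 0.26 and 0.30 over all genes, so the genes as a group moved about as far as a typical gene. Each stage serves in a pair of comparisons, so the comparisons share libraries. The fit had stage as its only factor and did not use the following of cows across stages. With the replicate number as a block for the cow, *IL2RA* passed in Y-P vs. Y-A (edgeR adjusted p = 0.0375, background 8.84%). In Y-P vs. Y-E *IL10* then passed beside *TGFB1* (edgeR adjusted p = 0.0247, background 18%).

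**Figure D1:**
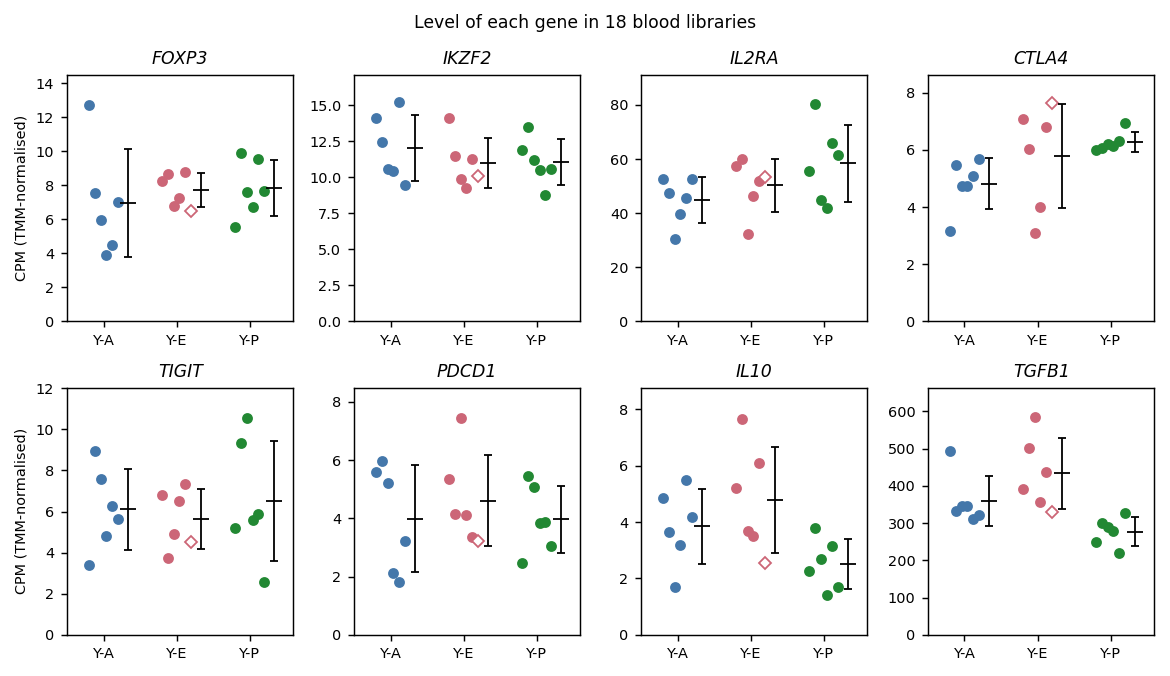
Level of each gene in CPM (vertical axis, starting at 0) in the 18 blood libraries, by stage (horizontal axis). Points are libraries in the order of their numbers, the open diamond is Y-E replicate 6, and the bars give the mean and SD of 6 libraries. *TGFB1* in Y-P (219 to 328 CPM) lies below Y-E (331 to 585 CPM), *CTLA4* in Y-P (6.0 to 6.93 CPM) lies above Y-A (3.17 to 5.69 CPM), and *FOXP3* is widest in Y-A (3.90 to 12.7 CPM).

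Compared per length, as FPKM (fragments scaled by gene length and library total, the authors' values), the 8 genes spanned a wide range of levels. *TGFB1* led at 148 ± 29.7 FPKM (SD over 18 libraries), at the 96.7 percentile of the genes tested, and *IL2RA* followed at 16.1 ± 4.30 FPKM, at the 66.7 percentile. Each was above the next gene in 18 of 18 libraries. The other 6 genes lay close together: *TIGIT* had 6.0 ± 2.11 FPKM, *FOXP3* 4.68 ± 1.20 FPKM, *PDCD1* 3.75 ± 1.23 FPKM, *CTLA4* 2.75 ± 0.738 FPKM, *IL10* 2.40 ± 0.957 FPKM and *IKZF2* 2.23 ± 0.340 FPKM. Their percentiles ran from 44.4 for *TIGIT* down to 28.6 for *IKZF2*. Neighbours in this order did not separate library by library, with *TIGIT* above *FOXP3* in 14 of 18 libraries, *FOXP3* above *PDCD1* in 15, *PDCD1* above *CTLA4* in 12, *CTLA4* above *IL10* in 10 and *IL10* above *IKZF2* in 10.

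*FOXP3*, the master regulator of the regulatory T cell lineage, is annotated as ENSBGRG00000025258 on the minus strand of chromosome X, 95031802 to 95043226. All positions are those of the authors' table for the *Bos grunniens* genome. Its level was 3.90, 6.50 and 12.7 CPM (lowest, median and highest) in Y-A, 6.47, 7.77 and 8.81 CPM at Y-E, and 5.56, 7.65 and 9.90 CPM at Y-P. The stages overlapped, and the widest range, in Y-A, was set by replicate 1 at the top and replicates 4 and 5 at the bottom. The coefficient of variation was 45.7% at Y-A, 12.9% at Y-E and 21.1% at Y-P, where counting alone would give 7.07%, 6.21% and 5.73%. The log2 fold change was 0.15 (SE 0.23, edgeR adjusted p = 0.999) in Y-E vs. Y-A, 0.17 (SE 0.23, adjusted p = 0.711) in Y-P vs. Y-A and 0.02 (SE 0.23, adjusted p = 0.962) in Y-P vs. Y-E. For the last of these the 95% interval ran from -0.47 to 0.52, so a change of the size seen for *TGFB1* was outside it in the downward direction. Leaving out Y-A replicate 1 moved the Y-E vs. Y-A value to 0.41 and the Y-P vs. Y-A value to 0.42, and neither passed. Across the same replicate numbers, *FOXP3* was higher in Y-P than in Y-A in 5 of 6, by 0.14 to 1.08 on the log2 scale, while replicate 1 was lower by a log2 difference of -1.19.

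*IKZF2* encodes Helios, a zinc finger transcription factor that a large share of regulatory T cells carry and that is also made by some other lymphocytes. It is annotated as ENSBGRG00000003601 on chromosome 2, 39024704 to 39222794, plus strand. Its lowest, median and highest levels were 9.49, 11.5 and 15.3 CPM at Y-A, 9.25, 10.7 and 14.1 CPM at Y-E, and 8.78, 10.9 and 13.5 CPM at Y-P. The ranges lay almost on top of each other, and the log2 fold changes were -0.13 (Y-E vs. Y-A), -0.12 (Y-P vs. Y-A) and 0.01 (Y-P vs. Y-E), each with an SE of 0.15. Their 95% intervals reached no further than -0.44 and 0.32. The gene had the smallest spread over the 18 libraries relative to its mean FPKM among the 8.

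*IL2RA* encodes the alpha chain of the IL-2 receptor (CD25), which raises the receptor's affinity for IL-2. It is annotated as ENSBGRG00000011736 on chromosome 12, 6825574 to 6880477, plus strand. The level was 30.4, 46.6 and 52.5 CPM at Y-A, 32.5, 52.7 and 60.1 CPM at Y-E, and 42.0, 58.6 and 80.4 CPM at Y-P. The stages overlapped, while 4 of 6 Y-P libraries exceeded the highest Y-A library. In Y-P vs. Y-A the log2 fold change was 0.39 (SE 0.18, 95% interval 0.01 to 0.76), with an unadjusted p of 0.0406 and an edgeR adjusted p of 0.197. Within each replicate number the Y-P library was higher than the Y-A library, in 6 of 6 and by 0.08 to 0.76 on the log2 scale. The share of all genes with such agreement between numbers was not counted in any comparison, so it is not shown to be particular to *IL2RA*. With the replicate number as a block for the cow, the same difference was 0.38 with an SE of 0.10 and passed (adjusted p = 0.0375, background 8.84%). The scaling moved this value as well. With the fold change taken relative to the T cell markers it was -0.10 (adjusted p = 0.711), and with a T cell score as a covariate it was 0.13 (SE 0.27, adjusted p = 0.916). In Y-E vs. Y-A *IL2RA* was also higher in 6 of 6 numbers, but by 0.02 to 0.34 only, and the fitted value was 0.17 (adjusted p = 0.999).

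*CTLA4* competes with the costimulatory receptor CD28 for CD80 and CD86. It is annotated as ENSBGRG00000012384 on chromosome 2, 49059921 to 49066416, minus strand. The level was 3.17, 4.92 and 5.69 CPM at Y-A, 3.10, 6.43 and 7.63 CPM at Y-E, and 6.0, 6.16 and 6.93 CPM at Y-P. Every Y-P library lay above every Y-A library, a pattern that 3.56% of all genes had in either direction and 1.23% in the upward direction. The fitted difference, 0.38 (SE 0.20, 95% interval -0.05 to 0.82), nevertheless missed the threshold (edgeR adjusted p = 0.278). Y-E covered the whole range of the other stages, with replicates 3 and 4 at 3.10 and 4.02 CPM and the other 4 libraries at 6.05 CPM or more. In Y-P the coefficient of variation, 5.37%, was below the 6.28% that counting error alone would give at 203 to 313 counts per library. The separation also depended on scaling, since relative to the T cell markers the Y-P vs. Y-A value was -0.07 (adjusted p = 0.833) and the groups overlapped.

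*TIGIT*, an inhibitory receptor that shares the ligands PVR and NECTIN2 with the activating receptor CD226, is annotated as ENSBGRG00000001881 on chromosome 1, 63717201 to 63735730, plus strand. Its level was 3.42, 5.94 and 8.94 CPM at Y-A, 3.73, 5.72 and 7.36 CPM at Y-E, and 2.58, 5.73 and 10.5 CPM at Y-P. The medians differed little and Y-P held both the lowest and the highest of the 18 libraries. The log2 fold changes were -0.11 (Y-E vs. Y-A), 0.10 (Y-P vs. Y-A) and 0.21 (Y-P vs. Y-E), each with an SE of 0.29 (adjusted p = 0.999, 0.884 and 0.689). *PDCD1*, the receptor known as PD-1 that damps signals of the T cell receptor, is annotated as ENSBGRG00000001972 on chromosome 3, 132168910 to 132182364, minus strand. It had 1.81, 4.23 and 5.95 CPM at Y-A, 3.23, 4.14 and 7.43 CPM at Y-E, and 2.45, 3.86 and 5.46 CPM at Y-P. The log2 fold changes were 0.20, -0.01 and -0.22 in the same order, each with an SE of 0.31, and the widest 95% limits were -0.87 and 0.86. In Y-A the libraries of *PDCD1* fell apart into replicates 1 to 3 at 5.22 to 5.95 CPM and replicates 4 to 6 at 1.81 to 3.24 CPM. With 60 to 237 counts per library, *PDCD1* had a counting error of 8.18% to 9.57% of its level, well under the 29.1% to 46.0% seen between libraries of a stage.

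**Figure D2:**
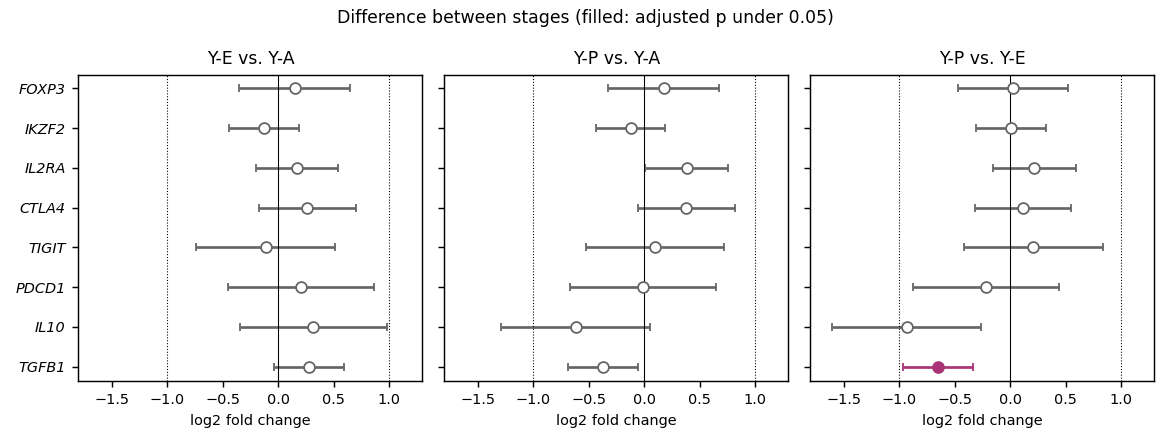
log2 fold change of each gene (horizontal axis) in the 3 comparisons, with 95% intervals from the standard error of the edgeR fit and 15 degrees of freedom. Filled points passed at an adjusted p under 0.05, and the dotted lines mark a log2 fold change of 1 in size. *TGFB1* in Y-P vs. Y-E, at -0.65, is the single filled point, and *IL10* beside it lies at -0.93 with an adjusted p of 0.0528.

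*IL10* is a cytokine that curbs antigen presentation and inflammatory cytokine production, made by regulatory T cells, B cells and monocytes among others. It is annotated as ENSBGRG00000017438 on chromosome 14, 87268941 to 87274264, minus strand. The level was 1.68, 3.91 and 5.51 CPM at Y-A, 2.56, 4.46 and 7.65 CPM at Y-E, and 1.42, 2.48 and 3.78 CPM at Y-P. Within each replicate number the Y-P library was lower than the Y-E library, by 0.45 to 1.28 on the log2 scale. The share of all genes with this pattern was not counted, and 3 of the 6 Y-P libraries lay within the range of Y-E. In Y-P vs. Y-E the log2 fold change was -0.93 (SE 0.31, 95% interval -1.60 to -0.26), or 0.524 times the estrus level. Its unadjusted p was 0.00791 and its edgeR adjusted p 0.0528. The call turned on the fit. With the replicate block the value was -0.91 (SE 0.26) and passed (adjusted p = 0.0247, background 18%). In DESeq2 it was -0.94 and passed (adjusted p = 0.0228, background 19.2%). Without Y-E replicate 6 it was -1.06 and passed (adjusted p = 0.0300, background 13.7%). It missed with library size only (edgeR adjusted p = 0.0725) and with limma on log2(FPKM + 1) (adjusted p = 0.0677). Of the 18 fits that left out 1 library it passed in 4, with edgeR adjusted p from 0.0300 to 0.141. In Y-P vs. Y-A the value was -0.62 (SE 0.31, adjusted p = 0.250), with Y-P lower in 4 of 6 numbers. *IL10* rested on 54 to 234 counts per library.

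*TGFB1* encodes the latent cytokine TGF-β1, which drives FOXP3 expression in naive CD4+ T cells and is held in large amounts in platelets. It is annotated as ENSBGRG00000019398 on chromosome 20, 65476243 to 65491468, plus strand. The level was 310, 339 and 494 CPM at Y-A, 331, 415 and 585 CPM at Y-E, and 219, 284 and 328 CPM at Y-P. Every Y-P library lay below every Y-E library, a pattern that 6.03% of all genes had in either direction and 3.84% in the downward direction. The margin was narrow at replicate 6 of both stages, with 331 CPM at Y-E and 328 CPM at Y-P. *TGFB1* fell by 0.65 on the log2 scale (SE 0.15, 95% interval -0.96 to -0.33, edgeR adjusted p = 0.00715), where 8.68% of all genes passed in that direction. It passed in each of the 18 fits that left out 1 library, with values from -0.71 to -0.54, and at -0.71 without Y-E replicate 6 (adjusted p = 0.00443). The replicate block gave -0.64 (adjusted p = 0.0109). In Y-P vs. Y-A the log2 fold change was -0.37 (SE 0.15), with an unadjusted p of 0.0209 and an adjusted p of 0.138, and in Y-E vs. Y-A it was 0.28 (SE 0.15, adjusted p = 0.858).

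Markers of other blood cells also differed in the comparison where *TGFB1* and *IL10* were lower, Y-P vs. Y-E. Of all genes, 8.68% passed lower and 5.77% higher there. In Y-P vs. Y-E, 4 of 6 neutrophil markers passed lower (median log2 fold change -1.37), and their summed level was 3870 to 8309 CPM at Y-E and 2212 to 3199 CPM at Y-P. Of the platelet markers 3 of 5 passed lower (median -1.25), with sums of 241 to 397 CPM at Y-E and 155 to 209 CPM at Y-P, and 1 platelet marker in Y-E and 2 in Y-P had a library at or under 3 counts. Of the monocyte markers 1 of 7 passed lower, near the share of all genes (median -0.55), with sums of 608 to 1183 CPM at Y-E and 487 to 857 CPM at Y-P. Of the red cell precursor markers 3 of 7 passed lower (median -2.11), with sums of 241 to 5197 CPM at Y-E and 156 to 253 CPM at Y-P. The 5197 CPM was Y-E replicate 6, beside a Y-E median of 286 CPM. In this list 1 marker in Y-E and 2 in Y-P had a library at or under 3 counts. T cell markers went the other way, with 5 of 8 higher and a median of 0.44. B cell and NK cell markers had 0 of 7 and 0 of 6 passing. With a T cell score as a covariate *TGFB1* kept its value, -0.65, but with an SE of 0.23 it missed the threshold (adjusted p = 0.169), and *IL10* stood at -1.52 (SE 0.45, adjusted p = 0.105). In that fit 1.04% of all genes passed, and the part of the cell makeup in these differences was not tested further.

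T cell markers were higher in Y-P (4 of 8 against Y-A, median 0.47), where 2.22% of all genes passed higher. The 8 genes were therefore also expressed relative to them, as the log2 CPM of the gene minus the mean log2 CPM of the 8 markers. On that scale *FOXP3* was -4.53 ± 0.61 at Y-A, -4.31 ± 0.17 at Y-E and -4.74 ± 0.11 at Y-P (SD, n = 6 each). The Y-E and Y-P libraries of *FOXP3* did not overlap there, running from -4.56 to -4.10 and from -4.86 to -4.58. *IL10* was -5.08 ± 0.53 in Y-E and -6.42 ± 0.43 in Y-P, and *TGFB1* was 1.47 ± 0.27 in Y-E and 0.41 ± 0.36 in Y-P, in both cases without overlap. On this scale 12.1% of all genes did not overlap between Y-P and Y-E, nearly all of them with Y-P lower (1758 of 1760). A fit scaled to these markers, added after the data had been seen, gave log2 fold changes in Y-P vs. Y-E of -1.39 for *IL10* (adjusted p = 0.00188), -1.06 for *TGFB1* (adjusted p = 0.000307), -0.66 for *PDCD1* (adjusted p = 0.104), -0.44 for *FOXP3* (adjusted p = 0.164) and -0.40 for *IKZF2* (adjusted p = 0.0801). In Y-P vs. Y-A it gave -1.10 for *IL10* (adjusted p = 0.00943), -0.83 for *TGFB1* (adjusted p = 0.00269) and -0.56 for *IKZF2* (adjusted p = 0.0163). The background under this scaling was 27.8% of all genes in Y-P vs. Y-E and 32.4% in Y-P vs. Y-A, with 27.6% and 32.2% on the lower side, so the members' 2 and 3 of 8 stood near it. The direction of *FOXP3*, *IL2RA*, *CTLA4* and *TIGIT* in both comparisons with Y-P, and of *IKZF2* in Y-P vs. Y-E, turned from higher to lower between TMM and this scaling.

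**Figure D3:**
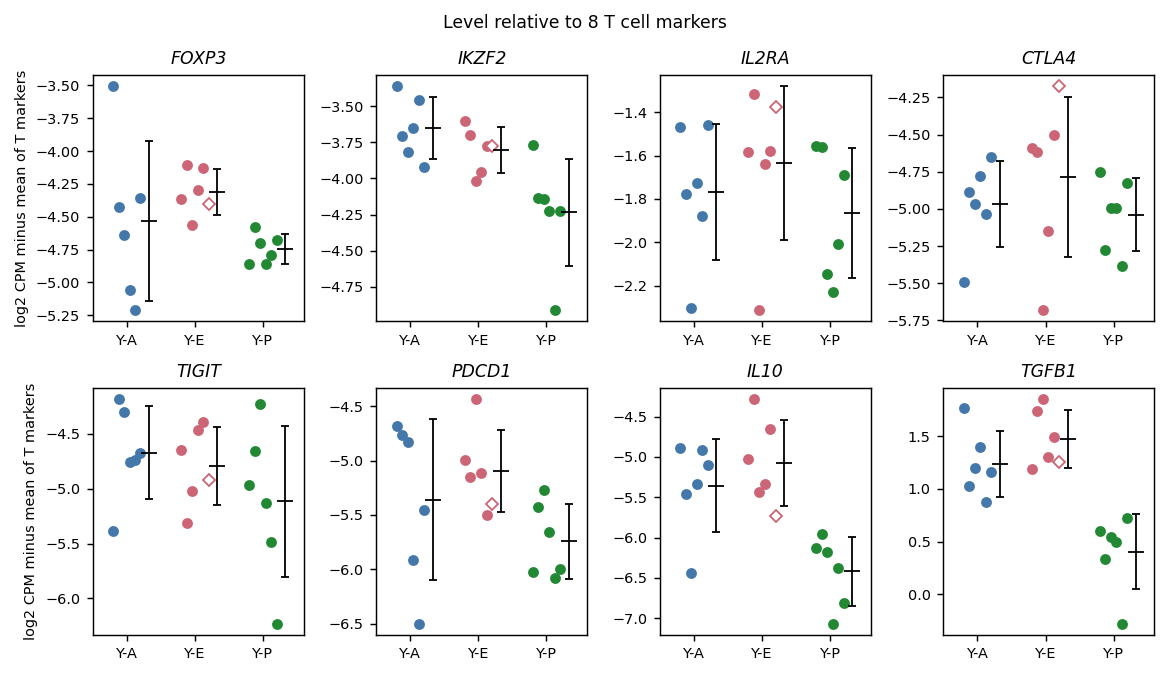
Level of each gene relative to 8 T cell markers (vertical axis, log2 CPM of the gene minus the mean log2 CPM of the markers, not starting at 0) by stage (horizontal axis). Points are libraries, the open diamond is Y-E replicate 6, and the bars give the mean and SD of 6 libraries. *FOXP3*, *IL10* and *TGFB1* are lower in each Y-P library than in any Y-E library, as were 12.1% of all genes tested on this scale.

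The genes around the members were followed in 6 lists. The lists were chosen with earlier results of these data known, so their counts and medians describe these genes and do not test for an excess over the background. In Y-E vs. Y-A 0 genes of any list passed. The shares of all genes that passed, 5.83% in Y-P vs. Y-A and 14.4% in Y-P vs. Y-E (8.68% lower), stand beside the counts that follow. With the T cell score as a covariate 2 of the 19 list calls described here were kept, those of *VSIR* and *BTLA* in Y-P vs. Y-E, and the other 17 did not pass. In that fit 0% of all genes passed in Y-P vs. Y-A and 1.04% in Y-P vs. Y-E, so the losses are not particular to the lists. The score itself moved with stage, so a lost call does not separate T cell content from stage. The IL-2 receptor and signaling list, which holds *IL2RG*, the JAK kinases and STAT5, had 0 of 9 tested genes passing in each comparison, and its median log2 fold change lay between 0.06 and 0.15. Of 20 tested FOXP3 partners and T cell transcription factors, 1 passed in Y-P vs. Y-A (background 5.83%) and 3 in Y-P vs. Y-E (background 14.4%), shares near those of all genes. *REL*, the NF-κB subunit c-Rel that *FOXP3* needs for its induction, was lower in pregnancy against both other stages, with 57.7 ± 9.21 CPM at Y-P, 89.4 ± 9.50 CPM at Y-A and 94.0 ± 8.79 CPM at Y-E. Its log2 fold changes were -0.63 (adjusted p = 0.00422) and -0.70 (adjusted p = 0.000601), without overlap between groups. Of all genes, 2.32% and 3.84% were lower in Y-P without overlap in these comparisons. With the T cell score they were -0.43 (adjusted p = 0.492) and -0.52 (adjusted p = 0.0986). *FOXO3*, a forkhead factor of T cell quiescence, fell by 0.69 in Y-P vs. Y-E (adjusted p = 0.00640), while *EZH2*, the histone methyltransferase of Polycomb repression, was higher by 0.45 (adjusted p = 0.0182). The call for *EZH2* was lost when scaled to the T cell markers, at 0.01.

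Of 16 tested costimulation and checkpoint partners, 2 passed higher and 2 lower in Y-P vs. Y-E, where 14.4% of all genes passed, and 0 in Y-P vs. Y-A, where 5.83% did. *VSIR*, the checkpoint molecule VISTA of myeloid cells and T cells, fell by 0.77, from 1710 ± 373 CPM at Y-E to 1005 ± 124 CPM at Y-P (adjusted p = 0.00167). *NECTIN2*, a ligand of TIGIT, fell by 1.80, from 37.4 ± 14.9 CPM to 10.8 ± 4.47 CPM (adjusted p = 0.00178). *BTLA*, an inhibitory receptor of lymphocytes, was higher by 0.60 (adjusted p = 0.0276), but lost its call when Y-E replicate 2, 3 or 5 or Y-P replicate 1 was left out, and stood at 0.22 relative to the T cell markers. *PTPN11*, the phosphatase SHP2 that PD-1 recruits, named here after its values were seen, was higher by 0.28 (adjusted p = 0.0350) and turned to -0.14 relative to the T cell markers. It kept its call in 11 of 18 fits that left out 1 library. Among 15 tested regulatory T cell surface and effector genes, *ENTPD1* (CD39, an enzyme that breaks down extracellular ATP) was the single gene to pass. It fell by 0.79 in Y-P vs. Y-A (adjusted p = 0.0179) and by 0.65 in Y-P vs. Y-E (adjusted p = 0.0199), where the call was lost without Y-E replicate 2. With the T cell score its values were -1.09 (adjusted p = 0.336) and -0.94 (adjusted p = 0.0893), in a fit where 0% and 1.04% of all genes passed.

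Of 17 tested genes of TGF-β activation and signaling, 0 passed in Y-P vs. Y-A and 4 in Y-P vs. Y-E, each of them lower, where 8.68% of all genes passed lower. *SKI*, a repressor of SMAD-driven transcription, fell by 1.06 (129.8 ± 18.5 CPM at Y-E and 62.4 ± 20.6 CPM at Y-P, adjusted p = 0.00441). *FURIN*, the protease that cleaves the TGF-β precursor, fell by 0.63 (adjusted p = 0.00832), and *TGFBR2*, the ligand-binding receptor, fell by 0.40 (adjusted p = 0.0148). The fourth, *SMURF1*, a ubiquitin ligase of the pathway that was named after its values were seen, fell by 0.60 (adjusted p = 0.0305) and kept its call in 13 of 18 fits that left out 1 library. The list's median was -0.20, beside 0.04 over all genes. As the list was chosen with earlier results known, neither its count nor its median tests for a shift of the pathway.

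Of 10 tested genes of the IL-10 receptor and its signaling, 1 passed in Y-P vs. Y-A (background 5.83%) and 4 in Y-P vs. Y-E, each of them lower (background 8.68% lower). This list too was chosen with earlier results known, so the counts do not test for an excess. *IL10RA*, the ligand-binding chain of the IL-10 receptor, had 77.5 ± 13.2 CPM at Y-A, 86.5 ± 18.6 CPM at Y-E and 53.8 ± 6.67 CPM at Y-P. It fell by 0.69 in Y-P vs. Y-E (adjusted p = 0.00490) and by 0.53 in Y-P vs. Y-A (adjusted p = 0.0418), the latter kept in 9 of 18 fits that left out 1 library. With the replicate block the Y-P vs. Y-A value was -0.50 (adjusted p = 0.0509). With the T cell score it was -0.53 (adjusted p = 0.561), in a fit where 0% of all genes passed. The kinase *TYK2* fell by 0.51 (adjusted p = 0.00900) and *STAT3*, the transcription factor downstream of the receptor, by 0.60 (adjusted p = 0.0124). *SOCS3*, a STAT3 target that feeds back on cytokine receptors, named after its values were seen, fell by 1.06 (adjusted p = 0.0153). The median of this list in Y-P vs. Y-E was -0.55, near the median of -0.55 over the 7 monocyte markers, and the part of myeloid cell content in it was not tested.

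**Figure D4:**
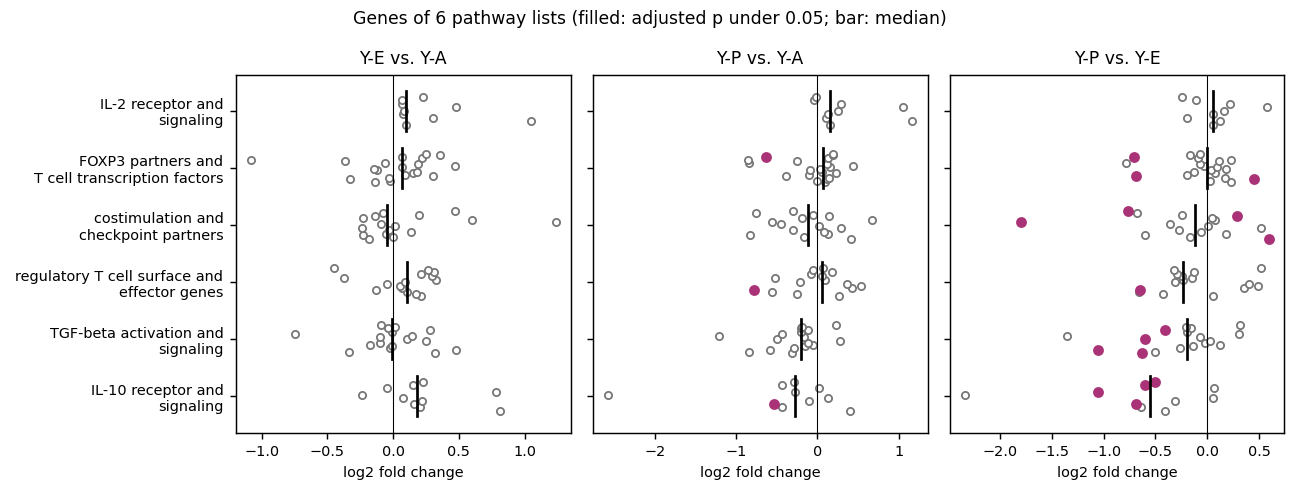
log2 fold change (horizontal axis) of the tested genes of 6 lists in the 3 comparisons, with the lists on the vertical axis. Each point is a gene, filled where the adjusted p was under 0.05, and the vertical bars are list medians. Filled points are absent from Y-E vs. Y-A, and in Y-P vs. Y-E the IL-10 list is shifted furthest, to a median of -0.55.

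How the 8 genes varied from library to library within a stage was described by correlations of log2 CPM over the 18 libraries after the stage means had been removed. The libraries share the cow across stages, and genes share a library's depth and cell makeup. Among the 28 pairs of members Pearson's r ran from -0.55 to 0.66, and 3 of 28 reached 0.5 in size. *IL2RA* and *IL10* varied together most of these pairs (r = 0.66, Spearman's rho = 0.65), still at 0.57 without the 2 libraries farthest out. Ranked by r among 14507 genes, *IL10* stood at 41 for *IL2RA*, and *IL2RA* at 39 for *IL10*. *FOXP3* and *PDCD1* had r = 0.63 (rho = 0.55), and 0.52 without Y-A replicates 1 and 4. Many other genes followed each of them more closely, since *PDCD1* ranked 299 for *FOXP3* and *FOXP3* ranked 538 for *PDCD1*. *CTLA4* and *TGFB1* had r = -0.55 (rho = -0.35), but -0.02 without Y-A replicate 1 and Y-E replicate 3, so that relation rested on those libraries. *FOXP3* and *CTLA4*, although both are high in regulatory T cells, had r = -0.16.

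Against the marker lists, *TGFB1* had its highest r with the monocyte score (0.55) and the neutrophil score (0.44), and r near 0 with the T cell score (-0.05) and the platelet score (0.10). *IL10* followed the neutrophil score (0.52) and *IKZF2* the NK or cytotoxic cell score (0.63). *FOXP3* had r = 0.41 with the T cell score, close to its r with the NK or cytotoxic cell score (0.39) and the monocyte score (0.33). With the T cell score *IL10* had r = 0.40 and *CTLA4* 0.03, while *CTLA4* had -0.53 with the neutrophil score. The genes most like each member over these libraries, out of 10669 genes with a name, were *COPS7A* (0.87) and *MROH8* (0.87) for *FOXP3*, *NUPR1* (0.83) for *IKZF2*, *ZSCAN26* (0.86) for *IL2RA*, *NFIA* (0.81) for *CTLA4*, *LTA* (0.83) for *TIGIT*, *LRRC14* (0.94) for *PDCD1*, *PLIN2* (0.79) for *IL10* and *NR4A1* (0.90) for *TGFB1*. *PDCD1* had the closest neighbours, with *ASPSCR1* (0.93) and *PELP1* (0.92) next. For *TGFB1* the next were *FLNA* (0.87) and *NCSTN* (0.87). These neighbours are the top of 10669 correlations over 18 libraries, so their r is raised by the selection. No p-value was computed for them, and they are not shown to be partners of the members.

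**Figure D5:**
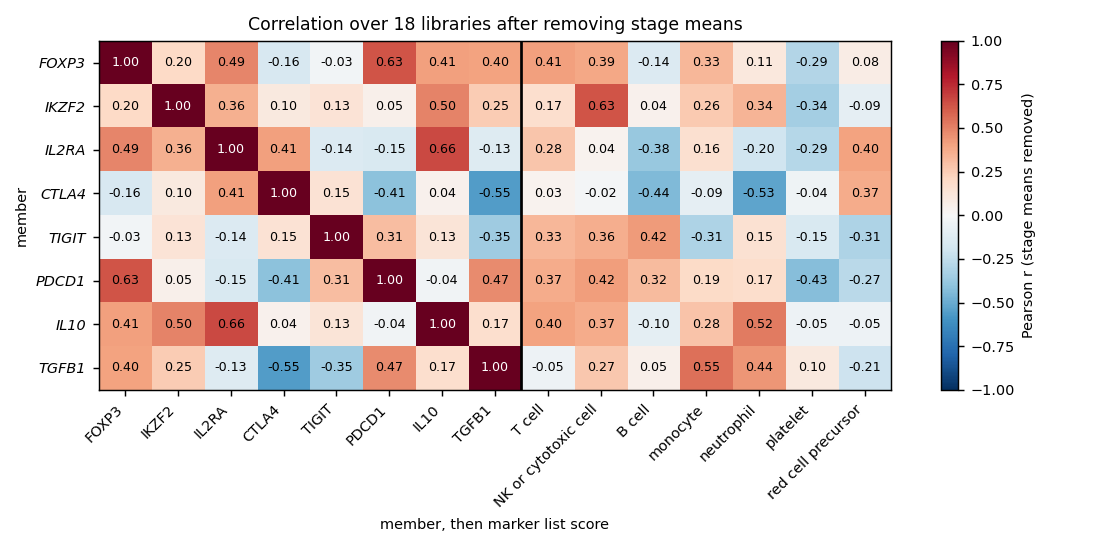
Pearson's r over 18 libraries after removal of the stage means, for the 8 genes (vertical axis) against each other and against 7 marker list scores (horizontal axis, right of the black line). Red is positive and blue negative. *IL2RA* with *IL10* (0.66) and *FOXP3* with *PDCD1* (0.63) are the highest pairs of members, and *IKZF2* with the NK or cytotoxic cell score (0.63) the highest pair with a score.

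The functional annotation in the table set the members beside each other only in part. *FOXP3* and *TGFB1* were 2 of the 3 genes annotated with tolerance induction to self antigen. *CTLA4*, *IL10* and *PDCD1* were 3 of the 149 genes of the KEGG T cell receptor signaling pathway, *CTLA4*, *PDCD1* and *TIGIT* were 3 of the 227 cell adhesion molecules, and *IL10*, *IL2RA* and *TGFB1* were 3 of the 272 genes of cytokine-cytokine receptor interaction. *IKZF2* shared none of these 4 terms.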

How the data were processed

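RNA of 18 whole blood libraries was sequenced by the authors after poly(A) selection. Per the labels and the submitters' processing notes, reads were trimmed with cutadapt 1.9, aligned with HISAT2 2.2.1 to the *Bos grunniens* genome and assembled with StringTie 2.1.6, and DESeq2 and edgeR are named. The authors deposited FPKM values per gene (scaled by length and mapped fragments) and unnormalised counts, whose making is not given in the sources used here. Groups came from the sample titles, and per-sample columns left unused numbered 0. Replicate numbers were taken to mark the 6 cows the study followed. Deviations of same-numbered libraries correlated at 0.110 to 0.515 (Y-E with Y-A), -0.0492 to 0.369 (Y-P with Y-A) and -0.0544 to 0.400 (Y-P with Y-E). The p-values of the main fit treat the 18 libraries as independent samples, although the study followed the same cows. Only the fits with the replicate block use the numbers, and they account for the cow only where the numbers are the cows.

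Counts of all 20607 genes were filtered (filterByExpr, 14508 kept), TMM-normalised and fitted with edgeR 4.0.16 in R 4.3.3 (quasi-likelihood, stage as factor, 18 libraries, Benjamini-Hochberg over all genes tested). Standard errors came from the fold change and its F statistic. Stage-centred correlations used log2 CPM with a prior count of 2. limma 3.58.1 was run on log2(FPKM + 1) and log2(FPKM + 0.1), where fold changes of low genes are understated, and DESeq2 1.42.0 on the counts. Other alternatives were library size only, no filter, the 2 stages compared alone, a replicate block, a T cell score covariate and leaving out each library. Scaling to the T cell markers and combinations with 17 libraries or with the block were chosen after seeing the data. The edgeR fit with stage as its only factor was tested on simulated counts with known fold changes and no cow effect. The other fits and the correlations were not tested in this way. Members and lists were chosen with earlier results of these data known. The text names the 8 members, up to 3 passing genes per list and comparison by smallest adjusted p, and the nearest neighbours of each member. Of the list genes, those without an entry under their symbol in the table were left out. Intervals from counting cover counting error only.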

Additional observations from a re-analysis of the deposited data

Results flagged for a closer look

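In 2 of 24 sets of 6 libraries (8 genes in 3 stages) a library lay far from the other 5, by Dixon's test. Chance alone gives about 1 in 20 such sets. *TGFB1* in Y-A replicate 1 had 494 CPM, where the next library had 347 CPM and the lowest 310 CPM, a gap of 0.799 of the range. *CTLA4* in Y-P replicate 6 had 6.93 CPM, where the next had 6.31 CPM and the lowest 6.0 CPM, a gap of 0.674 of the range. In Y-P vs. Y-A neither gene passed with all 18 libraries (edgeR adjusted p = 0.138 for *TGFB1* and 0.278 for *CTLA4*), so no call there could be lost. Neither passed without its outlying library. Over the 18 fits that left out 1 library, the log2 fold change ran from -0.42 to -0.28 for *TGFB1* and from 0.26 to 0.42 for *CTLA4*.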

How the results depend on the processing

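*TGFB1* in Y-P vs. Y-E kept its direction in every alternative run and passed in all but the fits with a T cell score. Counting error exceeded the spread between libraries in *CTLA4* at Y-P alone among the members, and p-values over 6 libraries per stage leave changes within the intervals above undetected. The numbers of genes below are out of all genes tested.

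Members passing in Y-P vs. Y-A numbered 0 and became 1 (*IL2RA*) with the replicate block, library size only, limma on log2(FPKM + 1), limma on log2(FPKM + 0.1), the block with library size only and the block over 17 libraries, and 3 when scaled to the T cell markers over 18 or 17 libraries. In Y-P vs. Y-E the count of 1 became 2 (*TGFB1* and *IL10*) with the block, DESeq2, the block over 17 libraries and T cell marker scaling over 18 or 17 libraries, 3 (also *IL2RA*) with the block and library size only, and 0 with the T cell score over 18 or 17 libraries. Leaving out 1 library gave 0 members for Y-E vs. Y-A, 0 for Y-P vs. Y-A and 1 to 2 for Y-P vs. Y-E, where *IL10* passed without Y-A replicate 3, Y-E replicate 4, Y-E replicate 6 or Y-P replicate 2. The replicate block changed no other call of a member. Of the 19 list calls, 18 were kept with the block, 19 with DESeq2, 17 with no filter, 16 with the 2 stages alone, 15 with library size only, 13 and 11 with log2(FPKM + 1) and log2(FPKM + 0.1), 16 when scaled to the T cell markers and 2 with the T cell score (3 over 17 libraries).

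Of all genes, 3 passed in Y-E vs. Y-A, but 14 with the block, 67 with DESeq2, 33 with the block and library size only, 54 with the block over 17 libraries, 17 when scaled to T cell markers over 17 and 14 with the T cell score over 17. In Y-P vs. Y-A 846 passed, but 1282 with the block, 1333 with library size only, 1516 with DESeq2, 2205 with log2(FPKM + 1), 1799 with log2(FPKM + 0.1), 482 with the 2 stages alone, 0 with the T cell score (2 over 17), 4700 when scaled to T cell markers (4724 over 17) and 1774 with the block and library size only. In Y-P vs. Y-E 2096 passed, but 3187 with log2(FPKM + 1), 151 with the T cell score (196 over 17) and 4037 when scaled to T cell markers (3333 over 17). Leaving out 1 library gave 3 to 23, 386 to 1077 and 1372 to 2305. Library size only moved the median of all genes to 0.19 and 0.18 in the comparisons with Y-P and the higher and lower calls from 322 and 524 to 1075 and 258 (Y-P vs. Y-A) and from 837 and 1259 to 1795 and 758 (Y-P vs. Y-E). The T cell marker scaling gave 29 and 4671, and 27 and 4010. The causes were not tested.

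Values whose sign turned, none of them passing except as stated, were these. With the T cell score (18, then 17 libraries), *FOXP3* was -0.32 and -0.30 in Y-P vs. Y-A and -0.43 and -0.43 in Y-P vs. Y-E, *TIGIT* was -0.36 and -0.33, then -0.22 and -0.22, and in Y-P vs. Y-E *IKZF2* was -0.124 and -0.125 and *IL2RA* -0.025 and -0.0199. Relative to the T cell markers (18, then 17 libraries), Y-P vs. Y-A gave *FOXP3* -0.32 and -0.32, *IL2RA* -0.10 and -0.10, *CTLA4* -0.0724 and -0.0721 and *TIGIT* -0.36 and -0.36. In Y-P vs. Y-E this scaling gave *FOXP3* -0.44 and -0.46, *IKZF2* -0.40 and -0.40, *IL2RA* -0.24 and -0.19, *CTLA4* -0.31 and -0.18, *TIGIT* -0.23 and -0.26 and *PTPN11*, which passed by TMM, -0.144 and -0.088. In Y-P vs. Y-A *IKZF2* was 0.046 with library size only, 0.064 and 0.089 with log2(FPKM + 1) and log2(FPKM + 0.1) and 0.054 with the block and library size only. *PDCD1* there was 0.14 with library size only, 0.205 and 0.29 with the FPKM values, 0.078 with the replicate block, 0.24 with the block and library size only and 0.080 with the block over 17. *FOXP3* in Y-P vs. Y-E was -0.017 with the block over 17. Leaving out 1 library turned values near 0 in Y-P vs. Y-E for *FOXP3* (-0.053 to 0.11), *IKZF2* (-0.058 to 0.080) and *CTLA4* (-0.0091 to 0.21), in Y-P vs. Y-A for *PDCD1* (-0.16 to 0.14) and *TIGIT* (-0.094 to 0.26), and in Y-E vs. Y-A for *TIGIT* (-0.25 to 0.027).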
